A study of Rattus norvegicus with 10 samples.

Results

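The genes described here encode ion channels of the potassium (Kcn), sodium (Scn), calcium (Cacn), chloride (Clcn) and transient receptor potential (Trpc, Trpm, Trpv) families. A gene was included when a probe set carried its symbol alone in the platform annotation, which gave 86 of 4736 named genes and 135 of 8740 tested probe sets. They were measured in microglia, the macrophages that reside in the brain, grown from neonatal rat brain with each flask seeded from a single brain and plated on day 15. The study compared 5 control cultures, given fresh medium, with 3 cultures given fresh medium with IFN-gamma (interferon gamma, a T cell and natural killer cell cytokine) at 100 U/ml for 16 hours. RNA was hybridised to 10 single-colour Affymetrix rat arrays. IFN-gamma culture 1 was run on 3 technical arrays (1a, 1b and 1c) and counted once. The labels give no strain or sex for the animals, and the values describe neonatal cells after weeks in serum.

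Ion channels are membrane pores that let particular ions run down their gradients. Potassium channels mostly hold the membrane potential negative, voltage-gated sodium and calcium channels open on depolarisation, chloride carriers of the Clcn family serve the cell surface or acidify endosomes and lysosomes, and TRP channels pass cations including calcium. Cultured microglia are known from patch-clamp work for inward rectifier and outward voltage-gated potassium currents, which have been tied to proliferation, migration and the respiratory burst.

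Levels are normalised log2(signal + 16) values. A signal of 0 lies at 4 on this scale, a signal of 16 at about 5, and the median over all tested probe sets in the controls was 4.97. Each gene is represented by its brightest probe set unless another is named. Probe sets differ in how well they bind, so a place above or below the median describes array signal and not the amount of one transcript against another. Median deposited signal per array ran from 7.4 to 23.7, and control culture 3 was the dimmest. In bulk RNA, fewer cells of a type and less RNA per cell cannot be told apart.

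In control cultures the channel genes lay mostly low. Of the 86 genes, 34 (39.5%) had a mean control level above the median, against 57.6% of all 4736 genes. In all 5 control cultures taken singly, each against its own median, 10 of them (11.6%) were above, against 29.7% of all genes, 20 were above in no control and 56 in some. Their median level was 4.78, against 5.12 for all genes. The highest was 6.98, for Kcnh3, and no channel gene exceeded 7, a level that 329 genes (6.95%) exceeded. A deposited signal above 16 on all 10 arrays was found for 5 channel genes (5.81%), against 18.6% of all genes. Without control culture 3 the count above the median was 31.

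**Figure D1:**
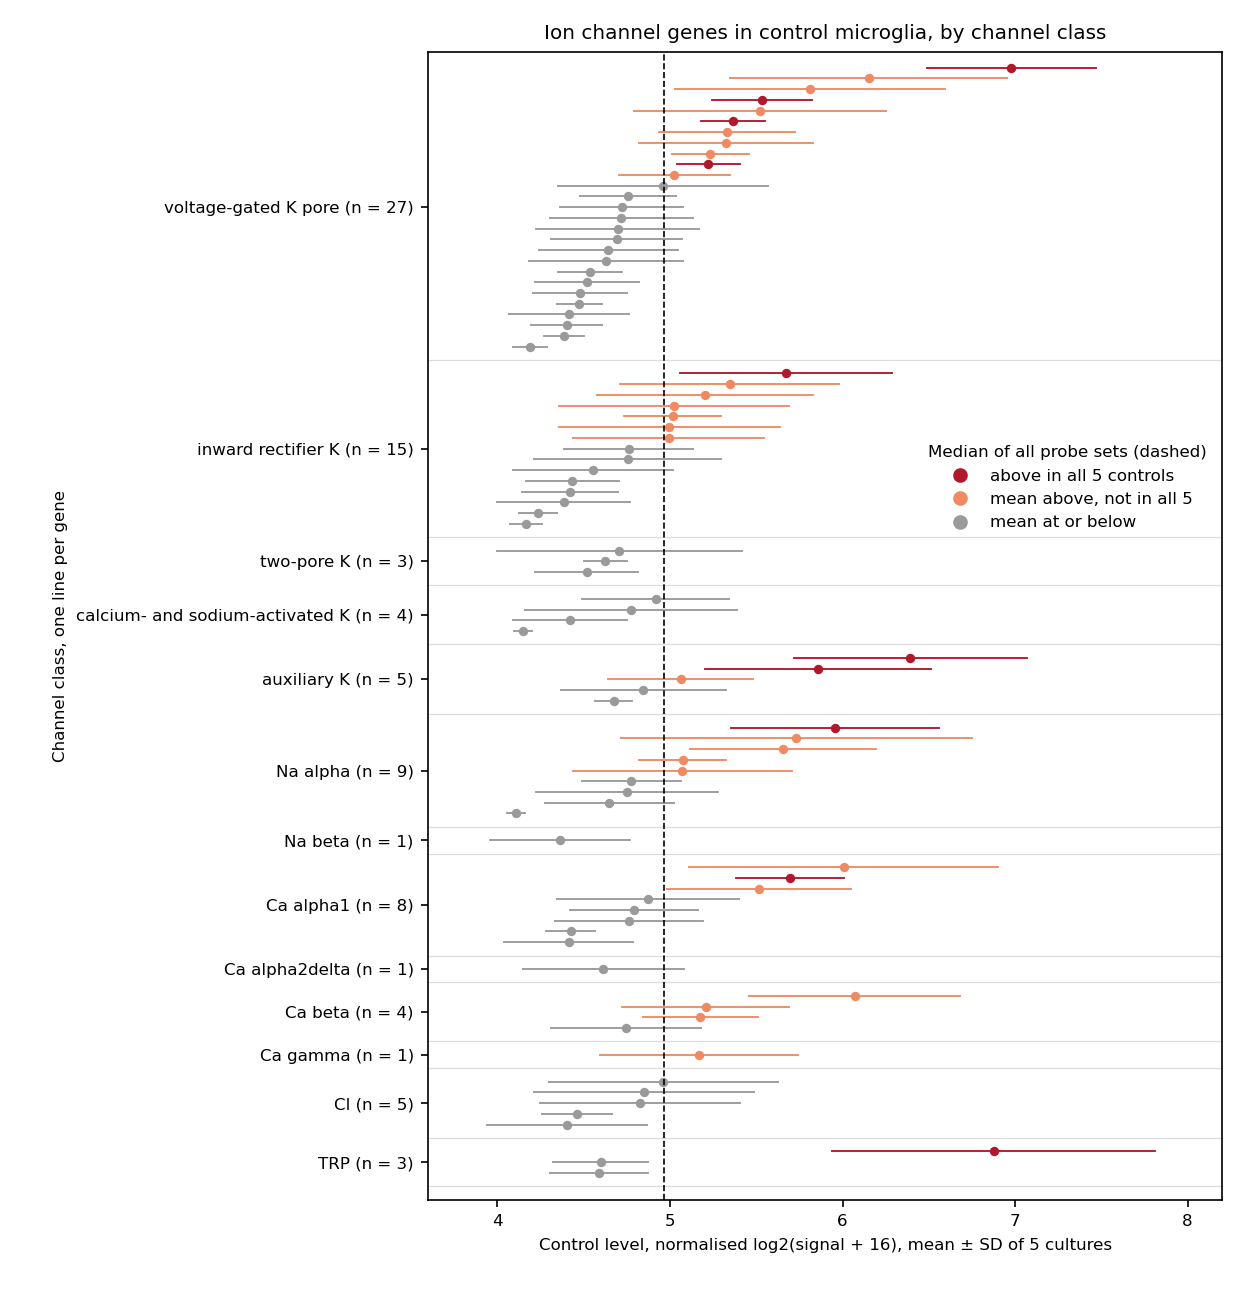
Control level of each of the 86 channel genes, by class. The horizontal axis is normalised log2(signal + 16), each point is the mean of 5 cultures and each bar ± 1 SD; the dashed line is the median of all probe sets (4.97). Most points sit at or left of the line, no chloride or two-pore potassium channel lies to its right, and Kcnh3 and Trpc1 lie farthest right.

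Potassium channels made up 54 of the genes, and 21 of them (38.9%) were above the median. Among the voltage-gated pore subunits 11 of 27 were above, and the Kcnh family, the ether-a-go-go related channels, gave 5 of these: Kcnh2, Kcnh3, Kcnh4, Kcnh7 and Kcnh8, of 8 measured. The Kcna (Shaker) family gave Kcna1, Kcna4 and Kcna5 of 6. Kcnq3, an M-current subunit, Kcnf1, a silent subunit, and Kcnc4, a fast-inactivating channel, were the remaining 3. Of the inward rectifiers 7 of 15 were above: Kcnj1, Kcnj15, Kcnj9 and Kcnj10, with Kcnj11, Kcnj5 and Kcnj8 within 0.05 of the median, at 5.01, 5.00 and 4.99. Just below it lay Kcnc1 and Clcn5, both at 4.96, and Kcnma1 at 4.92. None of the 3 two-pore leak channels (Kcnk1, Kcnk3, Kcnk5) and none of the 4 channels gated by internal calcium or sodium (Kcnma1, Kcnn1, Kcnn3, Kcnt1) was above. The auxiliary subunits Kcnmb1, Kcnab2 and Kcne1 were above, of 5.

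Among the pores for sodium 5 of 9 were above the median. They were Scn3a (5.96 ± 0.603, SD, n = 5), Scn8a, Scn7a (5.66 ± 0.540), Scn4a (5.07 ± 0.254) and Scn9a. Scn1a was the lowest of all channel genes, at 4.10, and the beta subunit Scn2b lay at 4.36. Of the pore-forming calcium channel alpha1 subunits 3 of 8 were above: the P/Q-type Cacna1a (6.01 ± 0.896), the T-type Cacna1g and the L-type Cacna1c. Of the beta subunits, which carry the pore to the membrane, 3 of 4 were above, with Cacnb1 at 6.07 ± 0.612, Cacnb3 at 5.21 ± 0.484 and Cacnb2 at 5.18 ± 0.335. Cacng1, the skeletal muscle gamma subunit, was above at 5.17, and Cacna2d1 was not, at 4.61. None of the 5 Clcn genes was above, the highest being Clcn5. Of the 3 TRP genes only Trpc1 was.

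The 10 genes above the median in every control culture were Kcnh3, Trpc1, Kcnmb1, Scn3a, Kcnab2, Cacna1g, Kcnj1, Kcnq3, Kcnh4 and Kcnh7. Kcnh3, an ether-a-go-go-like channel of forebrain neurons, had levels of 7.08, 6.20, 7.52, 6.91 and 7.18 in control cultures 1, 2, 3, 5 and 6, and of 6.88, 6.99 and 7.25 in IFN-gamma cultures 1, 2 and 3. Every culture of both groups was well above the median and the groups overlapped. Within IFN-gamma culture 1 the arrays 1a, 1b and 1c gave 5.90, 7.11 and 7.63, an SD of 0.888 against 0.491 between controls. The difference (IFN-gamma minus control) was 0.06 (SE 0.279), with a limma adjusted p of 0.984. Trpc1, a store-linked cation channel subunit, had levels of 5.71, 7.60, 6.03, 7.69 and 7.35 in the controls and 6.77, 6.79 and 6.33 with IFN-gamma. Its controls formed a lower pair (cultures 1 and 3) and 3 higher cultures, with the IFN-gamma cultures between them (difference -0.24, limma adjusted p = 0.946). Arrays 1a, 1b and 1c of a single IFN-gamma culture gave 7.76, 6.68 and 5.88 for it, a range about as wide as that of the controls.

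Kcnmb1, the smooth-muscle beta subunit of the BK channel, had levels of 6.11, 5.34, 6.91, 6.66 and 6.94 in the controls and 6.21, 6.45 and 6.81 with IFN-gamma. The control range enclosed all 3 IFN-gamma values (difference 0.10, limma adjusted p = 0.975), while its pore-forming partner Kcnma1 lay below the median at 4.92 ± 0.428 (SD, n = 5). Kcnab2, a beta subunit of Shaker channels, had 5.97, 5.42, 6.96, 5.44 and 5.51 against 5.94, 5.81 and 5.46. Its culture 3 stood highest, and the groups overlapped (difference -0.12, limma adjusted p = 0.967). Kcnj1, the renal outer medullary potassium channel, had 5.15, 6.0, 6.59, 5.47 and 5.17 in the controls and a narrow 5.80, 5.89 and 5.82 with IFN-gamma, inside the control range (difference 0.16, limma adjusted p = 0.950).

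Scn3a, the sodium channel typical of embryonic brain, had 5.03, 6.10, 6.36, 6.56 and 5.73 against 5.65, 4.88 and 5.33. IFN-gamma culture 2 lay below every control and culture 1 did not (difference -0.67, limma adjusted p = 0.564). Cacna1g had 5.47, 5.45, 5.93, 6.13 and 5.49 against 5.72, 5.11 and 4.80, again with overlap (difference -0.49, limma adjusted p = 0.576). Kcnh4 had 5.16, 5.52, 5.29, 5.60 and 5.27 against 5.20, 4.93 and 4.68, overlapping through IFN-gamma culture 1 (difference -0.43, limma adjusted p = 0.447). Kcnh7 had 5.12, 5.19, 5.34, 5.00 and 5.46 against 5.89, 5.35 and 5.51, overlapping through IFN-gamma culture 2 (difference 0.36, limma adjusted p = 0.571). Kcnq3 had 5.20, 5.26, 5.86, 5.68 and 5.66 against 5.20, 5.53 and 5.15, with IFN-gamma culture 3 just below every control (difference -0.24, limma adjusted p = 0.816). Of the 10 genes, 7 (70%, against 88.6% of all genes above the median in every control) were also above that culture's own median in each IFN-gamma culture, the exceptions being Cacna1g and Scn3a (2 of 3) and Kcnh4 (1 of 3).

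**Figure D2:**
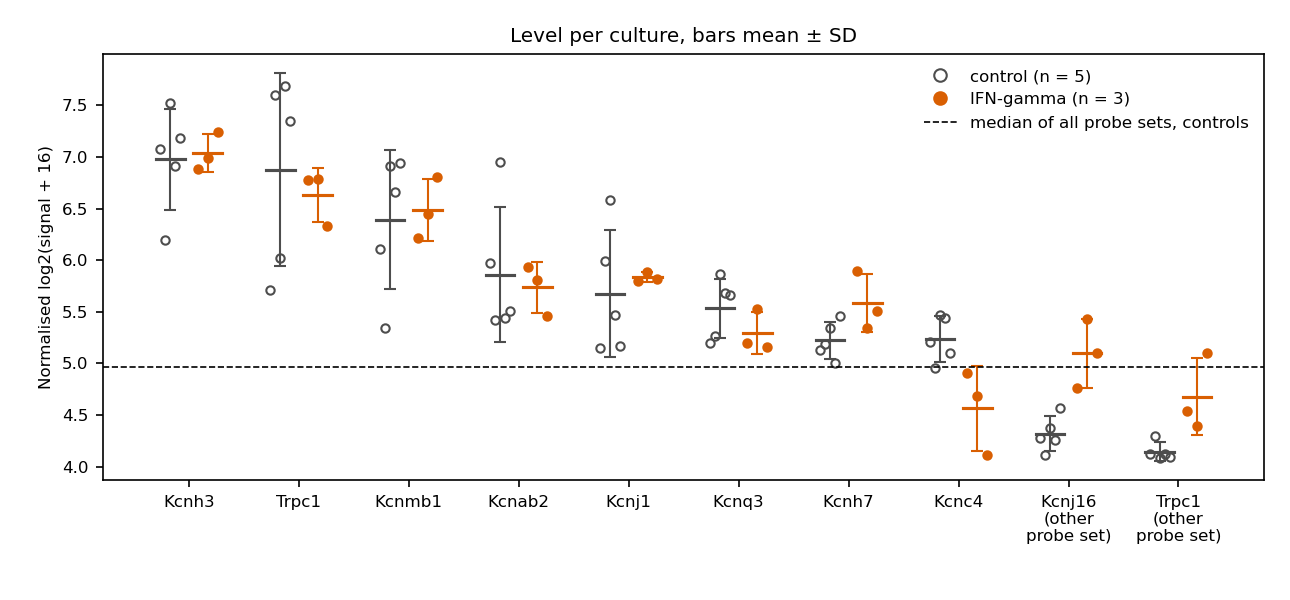
Normalised log2(signal + 16) in each culture, open circles for 5 controls and filled circles for 3 IFN-gamma cultures, with mean ± SD. The 7 genes above the median (dashed) in all 8 cultures stand at left with overlapping groups; at right are Kcnc4 and the dimmer probe sets of Kcnj16 and Trpc1, whose groups do not overlap.

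These places depended on the probe set. The array carries several probe sets for 35 of the channel genes, and in 19 of them the probe sets lay on both sides of the median. Kcnab2 (5.86 and 5.34) and Kcnh3 (6.98 and 5.07) were the 2 genes with all of theirs above, and 14 genes had all of theirs at or below. Both probe sets made from one Trpc1 sequence entry gave 6.88 and 4.14, the widest range among these genes, at 2.73. Likewise 2 probe sets from one Scn3a entry gave 5.96 and 4.48. The second probe sets of Kcnmb1 and Kcnq3 lay below the median, at 4.57 and 4.27. Fold changes of both signs were found within 17 of the 35 genes. With the mean of each gene's probe sets in place of the brightest, 26 of 86 genes were above the median. The matching shares of all genes are not given here, so these counts do not set channel genes apart from others.

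**Figure D3:**
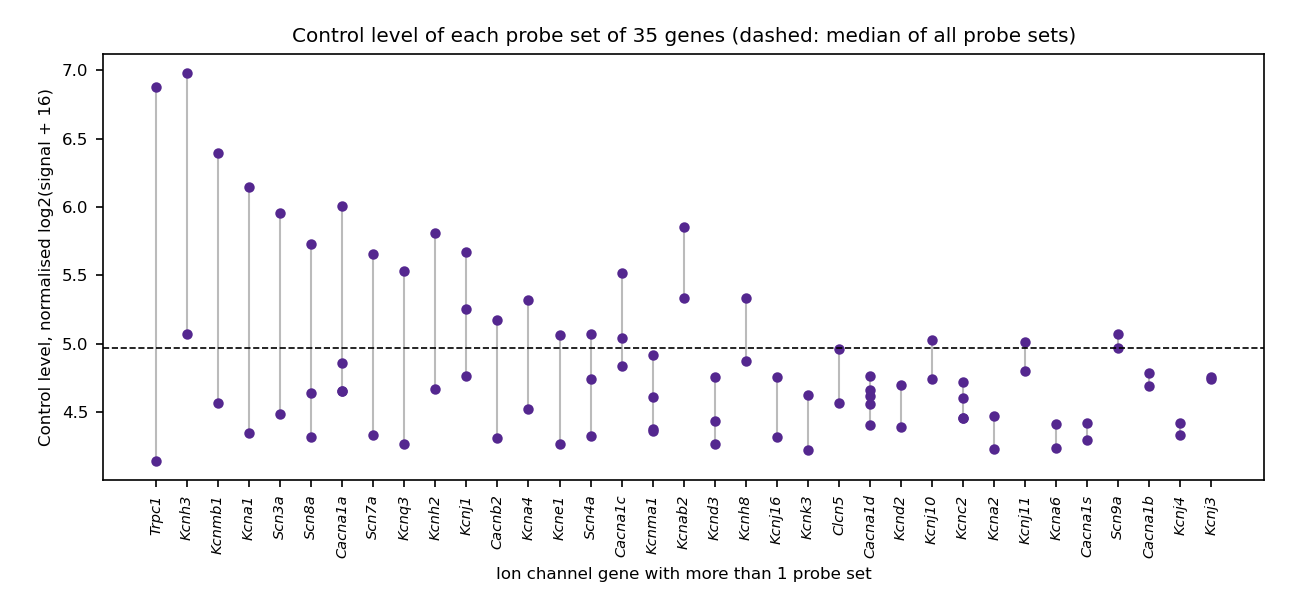
Mean control level, normalised log2(signal + 16), of each probe set of the 35 channel genes that have more than 1, with a line joining those of a gene. The line of 19 genes crosses the dashed median of all probe sets, and that of Trpc1 is the longest.

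Of 30 channels best known from microglia 16 were measured. Of these 5 were above the median, against 57.6% of all genes: Kcna5, Scn8a, Scn9a, Cacna1c and Trpc1. Only Trpc1 of the 16 was above in all 5 controls, against 29.7% of all genes, and Kcna5 was above in 2 controls. Kcna3, the Kv1.3 channel of the outward current in activated microglia, had levels of 4.25, 5.40, 4.52, 4.49 and 4.48 in the controls and 4.55, 5.10 and 5.40 with IFN-gamma. Control culture 2 and IFN-gamma cultures 2 and 3 were high and the other 5 cultures low (difference 0.39, limma adjusted p = 0.772). Kcna5, the Kv1.5 channel, had 4.80, 5.55, 5.10, 4.77 and 4.91 against 5.40, 6.20 and 4.66, so the IFN-gamma cultures spanned more than the control range (difference 0.39, limma adjusted p = 0.809). Kcnj2, the Kir2.1 inward rectifier of resting cultured microglia, had 4.27, 4.16, 4.20, 4.21 and 5.07 against 4.24, 5.20 and 4.20. It was near the floor in all but control culture 6 and IFN-gamma culture 2 (difference 0.16, limma adjusted p = 0.941).

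Scn8a, the Nav1.6 sodium channel, had the widest spread over controls of those named here, with 5.12, 4.45, 7.01, 5.65 and 6.43 against 5.97, 5.34 and 6.23. The IFN-gamma cultures lay inside the control range (difference 0.11, limma adjusted p = 0.984). Cacna1c lay at 5.52 ± 0.533 (SD, n = 5) in the controls with a difference of -0.32, and the L-type pore Cacna1d at 4.76 with 0.04. Scn9a lay at 5.07 with 0.13, Kcna2 at 4.47 with 0.33 and the small-conductance calcium-activated Kcnn3 at 4.42 with -0.17. The endosomal exchangers Clcn3, Clcn4 and Clcn5 lay at 4.85, 4.83 and 4.96, with differences of 0.08, 0.37 and -0.04. Of these 16 genes 11 had a difference above 0 and 5 below, against 2231 above and 2505 below among all genes. The median over the 16 genes was 0.12, against -0.02 over all genes. The smallest limma adjusted p of their 31 probe sets was 0.328.

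IFN-gamma changed no channel gene past the threshold. Of the 135 channel probe sets 0 had a limma adjusted p under 0.05, against 1.53% of all probe sets tested (0.927% higher and 0.606% lower), and the smallest was 0.116. At an unadjusted p under 0.05 limma picked 9 (6.67%), 5 higher and 4 lower, against 10.5% of all probe sets (5.74% higher and 4.76% lower). That count was 5 without IFN-gamma culture 2 and 5 without IFN-gamma culture 3. The median difference over channel genes was -0.02, as over all genes, and 39 genes were above 0 and 47 below. The middle of the distribution was narrower than that of all genes, with quartiles of -0.17 and 0.16 against -0.24 and 0.20. On the log2(signal + 16) scale the extremes were -0.74 for Cacna1a and 0.81 for Clcn7, and 0 of the 86 genes differed 2-fold, against 122 of 4736. These sizes depend on the pseudocount. With a pseudocount of 1 in place of 16 the extremes were -1.77 for Kcnc4 and 1.83 for Clcn7, 14 channel genes differed 2-fold (698 of all genes), and 0 channel probe sets passed the test.

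The size of change that the design could call limits this result. For the channel genes the log2 difference needed to pass had a median of 1.41 and ran from 0.68 to 2.60. For 63 of the 86 genes (73.3%, against 66.1% of all genes) the 95% interval of the difference lay within 2-fold in either direction. That is on the log2(signal + 16) scale, where genes near the floor can hardly fall 2-fold and their rises are understated. With a pseudocount of 1 the interval lay within 2-fold for 3 channel genes (3.49%, against 5.89% of all genes). The intervals therefore set no limit to the change in transcript amount of dim genes. The median SD between control cultures was 0.41, the same as over all genes, and for 31 channel genes (36.0%) the SD over the 3 technical arrays of a single culture was at least the SD between control cultures, against 38.2% of all genes.

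**Figure D4:**
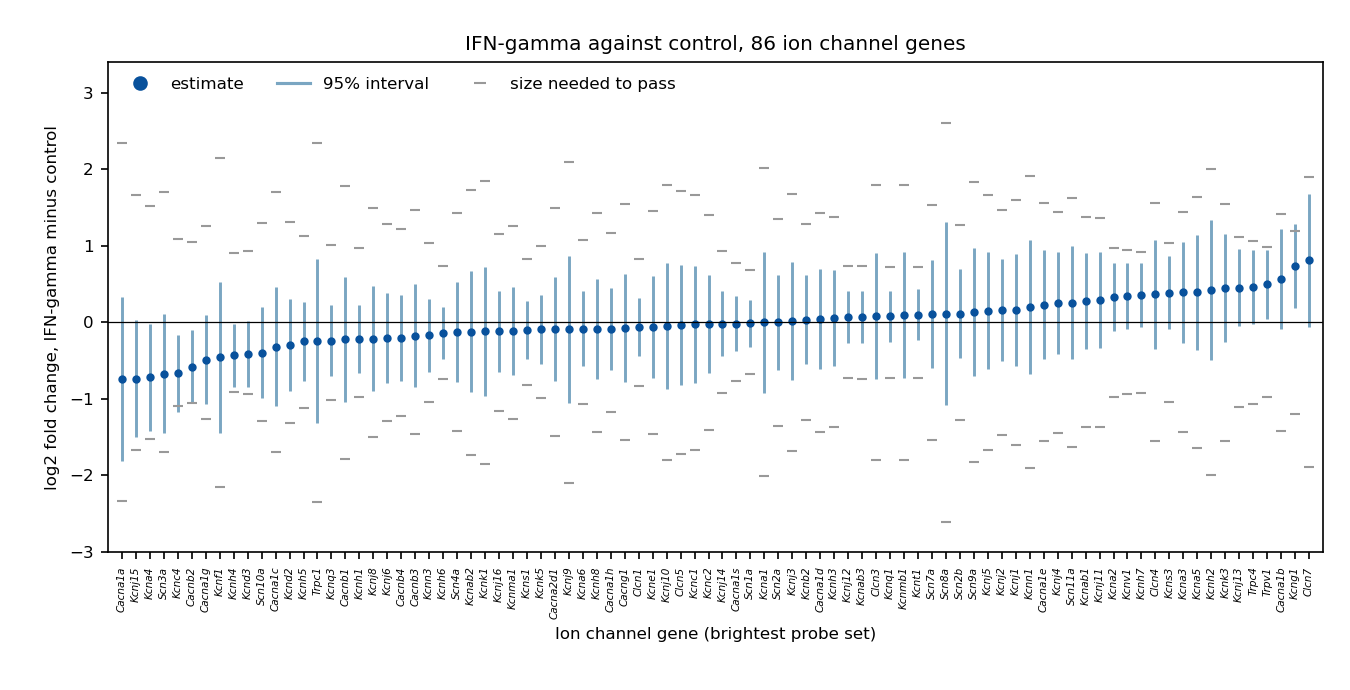
Log2 difference, IFN-gamma minus control, of the 86 channel genes in order of size, with 95% intervals; short grey bars mark the difference each gene would have needed to pass an adjusted p of 0.05. Every estimate lies between -0.74 and 0.81 and inside its grey bars.

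Potassium channel genes had 25 differences above 0 and 29 below, with a median of -0.02. Sodium channels had 6 and 4 (median 0.06), calcium channel subunits 3 and 11 (median -0.13), chloride channels 3 and 2 (median 0.08) and TRP channels 2 and 1 (median 0.46). No calcium channel subunit passed the test. Among these Cacnb2 had levels of 5.29, 5.06, 5.43, 5.46 and 4.65 in the controls against 4.73, 4.52 and 4.55. Only control culture 6 reached down into the range of the IFN-gamma cultures (difference -0.58, limma adjusted p = 0.338). The dimmer Cacnb2 probe set, near the floor at 4.31 in the controls, had a difference of 0.07. A dimmer Cacna1c probe set went the other way, with a difference of 0.58 (limma adjusted p = 0.460) where the brightest had -0.32.

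In 3 probe sets the IFN-gamma cultures did not overlap the controls (2.22%, against 7.68% of all probe sets), 2 of them higher with IFN-gamma and 1 lower, against 4.28% and 3.4% of all. The dimmer probe set of Kcnj16, the Kir5.1 subunit that pairs with Kcnj10 in glia, had levels of 4.27, 4.11, 4.38, 4.26 and 4.56 in the controls and 4.76, 5.43 and 5.10 with IFN-gamma. The controls were near the floor, with deposited signals of 1.0 to 9.3, and cultures 2 and 3 with IFN-gamma had 29.1 and 24.9. The 3 arrays of IFN-gamma culture 1 were split, at levels of 5.62, 4.46 and 4.20, so that array 1b alone would overlap the controls and 1c alone too. The difference was 0.78 (SE 0.195, 95% interval 0.34 to 1.22) with a limma adjusted p of 0.116, which passed at 0.023 with array 1a alone in place of the mean of 3. The brightest Kcnj16 probe set had a difference of -0.12 (limma adjusted p = 0.950).

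Kcnc4, the Kv3.4 channel, had levels of 5.21, 4.95, 5.47, 5.44 and 5.10 in the controls and 4.91, 4.68 and 4.11 with IFN-gamma. The groups came closest between control culture 2 and IFN-gamma culture 1, whose own arrays gave 4.15, 4.98 and 5.59. The difference was -0.67 (SE 0.222, 95% interval -1.17 to -0.17), with a limma adjusted p of 0.267. The dimmer Trpc1 probe set had 4.12, 4.30, 4.08, 4.12 and 4.10 against 4.54, 4.39 and 5.10. Its controls were near the floor and IFN-gamma culture 3 stood above the other cultures. Arrays 1a, 1b and 1c of IFN-gamma culture 1 gave 4.15, 4.24 and 5.23, so that 1a or 1b alone would overlap the controls. The difference was 0.53 (limma adjusted p = 0.328), while the bright Trpc1 probe set had -0.24.

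In other channel genes the groups overlapped. Kcng1, a silent subunit that modifies Kcnb channels, had 5.25, 4.15, 4.75, 4.52 and 4.55 against 5.20, 5.55 and 5.39, overlapping through control culture 1 (difference 0.74, limma adjusted p = 0.264). Trpv1, the capsaicin receptor, had 4.62, 4.97, 4.71, 4.45 and 4.24 against 4.91, 5.28 and 5.10, overlapping through control culture 2 (difference 0.50, limma adjusted p = 0.402). Clcn7, the lysosomal exchanger, had 4.31, 4.18, 4.14, 4.16 and 5.23 against 4.25, 5.71 and 5.68. Its IFN-gamma cultures 2 and 3 were above every control while culture 1 was among the lower controls (difference 0.81, limma adjusted p = 0.512). Kcna4, the A-type Kv1.4 channel, had 4.51, 5.74, 5.16, 5.63 and 5.57 against 4.62, 4.19 and 5.00, overlapping through control culture 1 (difference -0.72, limma adjusted p = 0.447). Kcnj15, an inward rectifier of kidney, lay at 5.35 ± 0.637 (SD, n = 5) in the controls and had a difference of -0.73 (limma adjusted p = 0.492), and Cacna1a had -0.74 (limma adjusted p = 0.703). The other Cacna1a probe sets lay below the median, at 4.86, 4.66 and 4.65, with differences of -0.18, 0.02 and -0.27. Kcng1, Kcna4, Cacnb2, Kcnj15 and Cacna1a were chosen after their values were seen.

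Other genes that move the same ions, from pumps and exchangers to intracellular release channels, were measured for 45 of 82 listed. Of these 45 genes 30 were above the median, against 57.6% of all genes. In all 5 controls 9 of them were above, against 29.7% of all genes. The sodium pump subunit Atp1b1 was highest, at 8.57. Of their 85 probe sets 0 had a limma adjusted p under 0.05, against 1.53% of all probe sets. At an unadjusted p under 0.05 limma picked 6, against 10.5% of all probe sets. The median difference of the 45 genes was -0.08, against -0.02 over all genes.

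Markers of several cell types were measured. For comparison, 57.6% of all genes were above the median control level. Of 11 measured microglial genes 10 were above the median, with Lyz2 at 10.83, and C1qb, C1qc and Lyz2 rose with IFN-gamma by the limma test, with list means of 6.65 to 6.93 in the controls and 7.08 to 7.19 with IFN-gamma. Csf1r, another defining microglial gene, was below it at 4.73. The microglial genes did not all move together. P2ry12, Cd14, Cx3cr1 and Fcgr2b had differences of -0.65, -0.34, -0.29 and -0.28, none past the threshold, and the rest of the list had differences above 0. Of 9 neuronal genes 4 were above, with Snap25 highest at 5.96 and Syt1 at 4.19, and the mean level of the list was 4.85 to 5.31 in the controls and 4.82 to 5.14 with IFN-gamma. Of 8 astrocytic genes 4 were above, with list means of 5.32 to 5.76 in the controls and 5.21 to 5.33 with IFN-gamma. These means include Glul, by far the highest of the list at 9.08, which fell by 1.66 and passed the limma test. The differences of the other astrocytic genes ran from -0.18 for Slc1a2 to 0.13 for Gja1, and none passed. Of 7 oligodendrocyte lineage genes 4 and of 8 fibroblast and vascular genes 7 were above, with list means of 4.99 to 5.50 and 5.37 to 5.89 in the controls and 4.80 to 5.18 and 5.31 to 5.45 with IFN-gamma. In the last list a dimmer probe set of Col1a1, a fibroblast collagen, fell by 1.20 (limma adjusted p = 0.0239). The brightest Col1a1 probe set did not fall, at 5.83 in the controls and 5.83 with IFN-gamma. Whether such other cells were present, and their part in the channel levels, was not tested.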

How the data were processed

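The deposited table holds 1 linear signal intensity per probe set and array. MAS5 and GCRMA are named without version or role, per the submitters' processing notes, and the sources used here do not say which of them made the intensities. From the deposited intensities log2(signal + 16) was computed and quantile normalised over 8799 rows. The 59 array control rows were then left out, and technical arrays 1a, 1b and 1c were averaged. The 2 groups were compared by limma (version 3.58.1, R version 4.3.3), using lmFit and eBayes with group alone, two-sided, and p-values were adjusted by Benjamini-Hochberg over 8740 probe sets at a threshold of 0.05. The fit was tested on simulated data. The change needed to pass is the size at which a probe set's own SE would give the unadjusted p of the last call. The culture was the replicate, and the numbers of cultures and arrays limit the precision.

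Symbols came from the platform annotation. All 86 channel genes matched the RefSeq table of GRCr8 by Entrez identifier, with 0 symbols differing. The build of the array design is not given, so no probe positions are printed.

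Genes were named by rule. The rule took those with any probe set past the threshold, those above the median in all 5 controls, those with a probe set whose groups do not overlap and differ by at least 0.5, and channels best known from microglia. Other channel genes given with values were chosen after their values were seen. The members and lists were chosen with earlier results of these data known. Both groups number cultures 1, 2 and 3, but the labels tie the numbers to no common animal or date, so cultures were not paired. Alternatives covered scaling, pseudocount, filters, probe set choice, technical arrays, variance model and each culture left out.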

Additional observations from a re-analysis of the deposited data

Results flagged for a closer look

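In 12 of the 86 channel genes 1 of the 5 control cultures stood apart from the other 4 by Dixon's criterion at the 95% level. Chance alone flags about 1 group in 20 if values are normally distributed, which levels near the floor need not be. The check was run on channel genes only, so the count cannot be set against a share of all genes. The voltage-gated potassium channels Kcna1 (4.72) and Kcnd3 (4.27) were low in control culture 1, where Kcnh5 was high (5.34). In control culture 2 Kcna3 (5.40), Kcna6 (5.01) and the calcium-activated Kcnn1 (5.85) were high and Kcnf1 was low (4.27). In control culture 3, the dimmest array, the calcium channel subunit Cacna2d1 (5.44) and the sodium channel subunit Scn2b (5.08) were high and Cacnb1 was low (4.99). Clcn7 (5.23) and Kcnj2 (5.07) were high in control culture 6. Control culture 5 stood apart for none of the 86. The Kcna1 gap was the widest for its range, with the other 4 controls between 6.44 and 6.57. Kcnj2 and Clcn7 were near the floor in the other controls, at 4.16 to 4.27 and 4.14 to 4.31.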

How the results depend on the processing

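Of the 24 settings, array 1a alone put a channel probe set past the threshold. It gave 1, the dimmer Kcnj16 probe set (difference 1.07, limma adjusted p = 0.023). No other setting that was tested gave any. Over 29 named differences and 611 alternative values that was the 1 value past the threshold, and 52 values changed sign without passing. All probe sets past the threshold, 134 as reported, came to 39 without scaling, 67 with a pseudocount of 1, 59 without probe sets of reduced specificity and 68 to 154 with 1 culture left out. With a replicate block for culture number they came to 22, 0 of them a channel, and the block gave 4 channel probe sets with an unadjusted p under 0.05. Deviations of same-numbered cultures from their group means had correlations of -0.03, 0.00 and -0.01. The labels do not say whether these cultures shared an animal or date, and the correlations cannot decide it. The count at an unadjusted p under 0.05, 9 as reported, was 2 among probe sets with a mean level above 5, 5 with array 1c alone and 5 to 12 with 1 culture left out. The channel genes above the median, 34 as reported, came to 22 without reduced-specificity probe sets (62 genes kept), 10 when each of the 5 controls had to be above, and 11 of 32 kept genes were above the higher median of probe sets with a mean level above 5. Without scaling the median difference of channel genes was 0.068 against -0.020 as reported, and that of all genes 0.11, a shift of 0.13 from the reported value. The causes of these changes were not tested. Low signal limits the dim probe sets, whose fold changes are understated by the pseudocount.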
